A study of Homo sapiens with 6 samples.

Results

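The 43 genes described here encode the machinery that marks lysosomal enzymes with mannose 6-phosphate, the 2 receptors that read the mark, and a set of lysosomal enzymes and membrane proteins. They were taken by gene symbol from a table of 17911 genes, and all 43 were listed, each on 1 row. The cells were LX-2, an immortalised line of human hepatic stellate cells. One group of 3 libraries came from cells labelled MPI exon 3 mutant (mutant), and the other 3 came from wild-type LX-2 cells (WT). No agent was added to either group. The labels do not say what the exon 3 mutation is, whether the mutant cells were 1 clone or a pool, or whether the 3 libraries of each genotype were separate cultures. The p-values below therefore rest on the scatter among libraries, part of which may be technical.

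MPI, phosphomannose isomerase, interconverts free mannose 6-phosphate and fructose 6-phosphate in the cytosol. The sorting mark is a different pool of the same sugar phosphate: in the Golgi, a phosphotransferase (GNPTAB, GNPTG) adds GlcNAc-phosphate to mannoses of N-glycans on lysosomal enzymes, and an uncovering enzyme (NAGPA) removes the GlcNAc. The mark is then bound by the cation-dependent receptor (M6PR) or the cation-independent receptor (IGF2R), which carry the enzymes to endosomes and return to the Golgi. Membrane proteins such as LAMP1, LAMP2 and SCARB2 reach lysosomes without the mark.

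Levels are given as normalised reads, the count of a gene divided by 1 size factor per library. MPI was measured at 1051, 978 and 1035 in the mutant libraries and 1292, 1283 and 1256 in the WT libraries, with a log2 fold change (mutant over WT, ± SE) of -0.32 ± 0.07 and a limma adjusted p of 0.00648. Counts over the whole gene do not show what the exon carried. Recovered reads over the listed genes were 31966756 to 34970840 per mutant library and 27037905 to 33991848 per WT library. The library numbered 1 stood apart from the other 2 of its genotype in both genotypes, with a chi-square per gene of 33.4 and 35.2 in the mutant and 14.0 and 16.8 in WT, against 2.73 and 3.51 between the libraries numbered 2 and 3. Of 13 stellate cell markers 10 were listed. Summed, they were at 150734 to 169347 in the mutant and 126996 to 135444 in WT, and DES, LRAT and DCN were not listed. Most of that sum was VIM (mean 104043 in the mutant and 86290 in WT) and COL1A1 (43863 in the mutant and 36688 in WT). By limma, 2 of the 10 were higher (VIM and TIMP1) and 5 were lower (ACTA2, COL1A2, PDGFRB, PDGFRA and LUM), ACTA2 by a log2 change of -0.97 ± 0.10. Of hepatocyte markers 1 of 8 was listed (SERPINA1, 62.4 to 105 in the mutant and 155 to 173 in WT) and ALB and APOA1 were not. Macrophages are rich in lysosomal enzymes, and 5 of 10 of their markers were listed, summing to 343 to 414 in the mutant and 480.04 to 554 in WT. By limma CD14 was lower (mean 129 in the mutant and 427 in WT), and 3 were higher. These were ADGRE1 (116 in the mutant and 10.1 in WT), CSF1R (47.4 in the mutant and 24.7 in WT) and LYZ (20.0 in the mutant and 2.00 in WT). PTPRC (56.6 in both) did not pass, and ITGAM, CD163, TYROBP, FCGR3A and MARCO were not listed. Endothelial markers (5 of 7 listed) summed to 519.9 to 761 in the mutant and 186 to 232 in WT. By limma 2 of them were higher and 0 lower. Most of that sum was TEK (mean 433 in the mutant and 96.4 in WT) and PECAM1 (123 in the mutant and 29.3 in WT). KDR and VWF had lower means in the mutant and did not pass. Cholangiocyte markers (3 of 4 listed) summed to 2710.4 to 3257 in the mutant and 1921 to 2155 in WT. Most of that sum was SOX9 (2845 in the mutant and 1777 in WT), the 1 that was higher by limma. KRT7 (205 in the mutant and 229 in WT) and KRT19 (6.96 in the mutant and 13.4 in WT) did not pass. The part of these markers in the results below was not tested.

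Lysosomal genes are known for an E-box motif near their start, bound by TFEB and its relatives, so the DNA before the starts of the 43 genes is shown first. RefSeq start sites (GRCh38.p14) were matched for 33 of the 43 genes, and the 250 bases before each start were searched for 2 palindromes, which read the same on both strands: CACGTG, and TCACGTGA, which contains it. The printed stretches were chosen among those that lie outside the same genes as GENCODE 29 draws them, and belong to a receptor that was higher, a tag-making enzyme that was lower, a glycosidase that was higher, and 3 genes that did not pass the test. Each is printed as reading 5′ to 3′ on the gene's strand. A check of orientation did not pass for GAA, so its reading direction and distances are less certain. Capitals mark TCACGTGA, or CACGTG for NEU1, and the GNPTAB stretch holds neither.
IGF2R, 250 bases before the start (chr6:159968832-159969081, plus strand): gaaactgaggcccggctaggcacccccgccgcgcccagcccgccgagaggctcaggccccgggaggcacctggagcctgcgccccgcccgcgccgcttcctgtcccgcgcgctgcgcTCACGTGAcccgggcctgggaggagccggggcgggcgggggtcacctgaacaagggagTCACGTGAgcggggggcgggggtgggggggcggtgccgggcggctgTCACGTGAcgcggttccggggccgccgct
GNPTAB, 250 bases before the start (chr12:101830960-101831209, minus strand): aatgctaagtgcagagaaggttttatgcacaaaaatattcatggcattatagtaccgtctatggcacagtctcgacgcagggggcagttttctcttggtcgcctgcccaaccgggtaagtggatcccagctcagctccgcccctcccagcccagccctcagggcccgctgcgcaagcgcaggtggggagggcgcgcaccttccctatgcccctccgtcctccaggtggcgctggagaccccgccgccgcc
NEU1 (chr6:31862912-31862977, minus strand): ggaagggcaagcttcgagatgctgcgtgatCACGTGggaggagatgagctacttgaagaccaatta
LAMP1 (chr13:113297180-113297238, plus strand): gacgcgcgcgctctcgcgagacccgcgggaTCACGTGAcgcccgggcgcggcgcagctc
GAA (chr17:80101474-80101541, plus strand): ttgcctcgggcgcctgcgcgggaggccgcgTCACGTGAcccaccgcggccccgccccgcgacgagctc
GALNS (chr16:88857085-88857152, minus strand): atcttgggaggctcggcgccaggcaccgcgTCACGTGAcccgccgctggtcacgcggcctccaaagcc

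IGF2R held 3 copies of TCACGTGA, whose first bases lie 133, 75 and 29 bases before the start. LAMP1 held 1 copy, 29 bases before the start, and 5 copies of the shorter CACGTG in all. GAA held 2 copies, 77 and 32 bases before the start, and GALNS 1, 175 bases before it. The other 3 with TCACGTGA were GNPTG (13 bases), NAGPA (21 bases) and CTSA (26 bases). CACGTG was in 11 of the 33 (33.3%), against 8.75% of 11372 tested genes with a RefSeq promoter, and TCACGTGA in 7 of the 33 (21.2%), against 1.61%. By direction of change, CACGTG was in 2 of 6 matched genes that were higher (IGF2R and NEU1), 0 of 7 that were lower and 9 of 20 that did not pass the test. A match describes letters and not a bound site, and the absence of a match holds for these 250 bases only.

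Of the 43 genes, 8 were higher in the mutant (18.6%), 8 were lower (18.6%) and 27 did not pass the test (limma-trend on log2 values, adjusted p under 0.05). Over all 17893 genes tested, 16% were higher and 16.6% lower, so the shares of the lysosomal genes were close to those of all genes in both directions. Their median log2 fold change was -0.04, against -0.0031 over all tested genes. Changes were small: the median absolute log2 fold change was 0.208, against 0.265 over all tested genes. Of the 43, 3 (6.98%) reached an absolute log2 fold change of 0.5, against 25.7% of all tested genes. These comparisons were not matched for level: the 43 had means of 102 or more, while genes were tested from a mean of 10. Mutant and WT libraries did not overlap for 23 of the 43 (53.5%), with the mutant above in 11 and below in 12, against 46.7% of all tested genes. With the replicate number as a block, 13 were higher and 13 lower, against 25.1% and 24.6% of all tested genes.

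**Figure D1:**
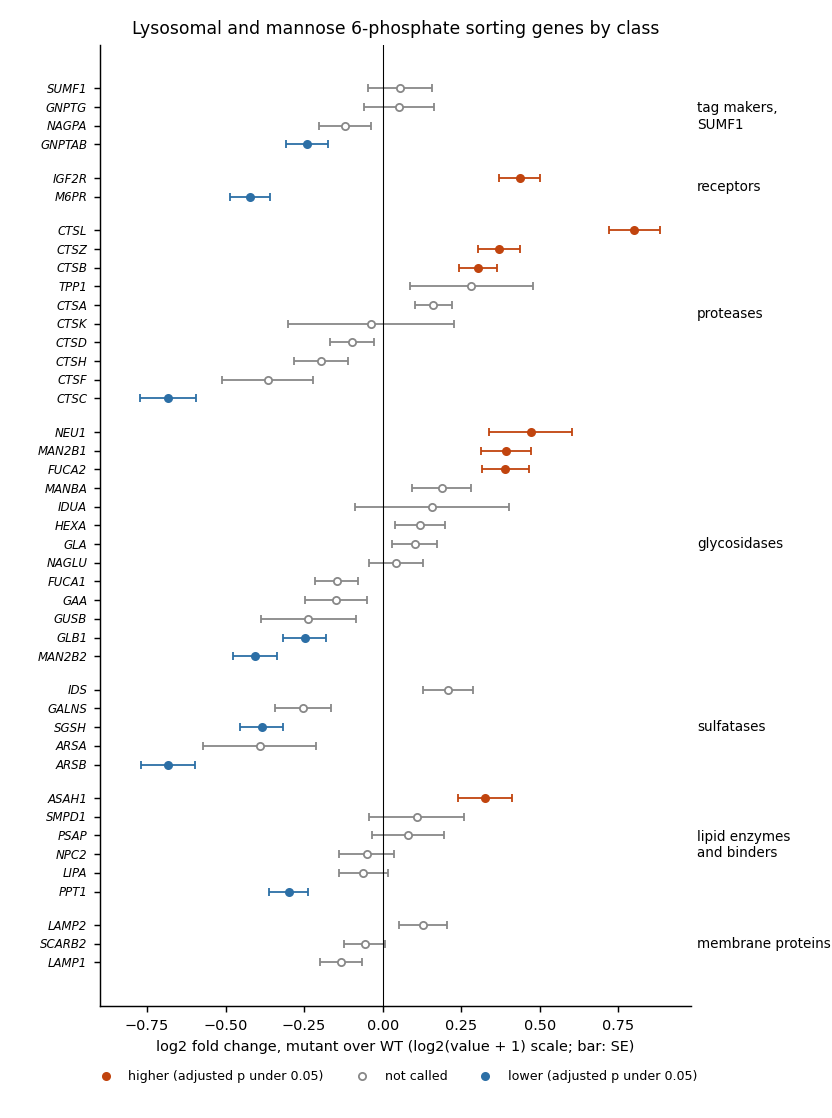
Log2 fold change of each of the 43 genes, from limma on log2(value + 1), as mutant over WT (x axis), by class (rows), with bars of 1 SE; filled points passed limma's test at adjusted p under 0.05. Changes run from -0.68 (CTSC and ARSB) to 0.80 (CTSL), and the receptors, proteases, glycosidases and lipid proteins each hold points that passed on both sides of 0.

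The 2 receptors moved in opposite directions. M6PR (ENSG00000003056, GRCh38 chromosome 12, 8940363 to 8949955, minus strand), the small cation-dependent receptor, was at 3487, 3819 and 3608 normalised reads in the mutant libraries and 5054, 4738 and 4834 in the WT libraries. Every mutant library was below every WT library, and the log2 fold change was -0.42 ± 0.06 (limma adjusted p = 0.00158). IGF2R (ENSG00000197081, chromosome 6, 159969099 to 160113507, plus strand), the large cation-independent receptor, which also binds and clears the growth factor IGF2, was at 9255, 8911 and 8299 in the mutant and 6469, 6501 and 6571 in WT. Every mutant library was above every WT library, and the log2 fold change was 0.44 ± 0.07 (limma adjusted p = 0.00149). Both calls were kept under all 19 alternatives to that analysis. In bulk RNA a change in all cells and a change in the share of cells that express a gene cannot be told apart.

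Per kilobase of exon, M6PR had 963 ± 44.5 normalised reads in the mutant and 1291 ± 42.8 in WT, and IGF2R had 494 ± 27.2 in the mutant and 365 ± 2.93 in WT (SD, n = 3 each). M6PR was thus the higher of the pair per length in both genotypes. The ratio of IGF2R to M6PR per kilobase was 0.562, 0.494 and 0.487 in the mutant libraries and 0.271, 0.290 and 0.288 in the WT libraries, with no overlap. Of the M6PR exon length, 29.3% overlaps exons of PHC1 on the opposite strand, and the sources used here do not give whether the counting used strand. Reads in that stretch could therefore belong to either gene. PHC1 averaged 1362 in the mutant and 1872 in WT, with a log2 change of -0.46 ± 0.08 (limma adjusted p = 0.00237).

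Of the 4 genes that make the mark or activate sulfatases, 1 was lower and 0 were higher by limma, against 16.6% and 16% of all tested genes. At an unadjusted p under 0.05, or with DESeq2 or edgeR, 0 were higher. With both libraries numbered 1 left out, SUMF1 was higher by limma, as were 28.3% of the genes tested without them. GNPTAB (ENSG00000111670, chromosome 12, 101745497 to 101830938, minus strand), which encodes the alpha and beta subunits of the phosphotransferase, was at 1861, 1735 and 1657 in the mutant libraries and 2089, 2070.0 and 2040.3 in the WT libraries. The genotypes did not overlap, and the log2 fold change was -0.24 ± 0.07 (limma adjusted p = 0.0247). The call was lost when any 1 library other than mutant replicate 1 was left out, with adjusted p from 0.0697 to 0.101 by limma.

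The other makers overlapped between genotypes. GNPTG (ENSG00000090581), the gamma subunit of the same enzyme, was at 1120.4, 951 and 991 in the mutant and 1146, 933 and 886 in WT, and its log2 fold change was 0.05 with a 95% interval from -0.20 to 0.31 (limma adjusted p = 0.755). NAGPA (ENSG00000103174), the uncovering enzyme, was at 559.7, 608 and 643 in the mutant and 658, 671 and 634 in WT, with a log2 fold change of -0.12 and an interval from -0.31 to 0.07 (limma adjusted p = 0.309). SUMF1 (ENSG00000144455), which does not act on the mark but converts a cysteine in the active site of sulfatases to formylglycine, was at 559.7, 693 and 688 in the mutant and 647, 610.1 and 603 in WT. Its log2 fold change was 0.05 with an interval from -0.18 to 0.29 (limma adjusted p = 0.716). In SUMF1, mutant replicate 1 lay below all WT libraries and the other 2 mutant libraries above them. Of the GNPTG exon length, 22.2% overlaps UNKL on the opposite strand.

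**Figure D2:**
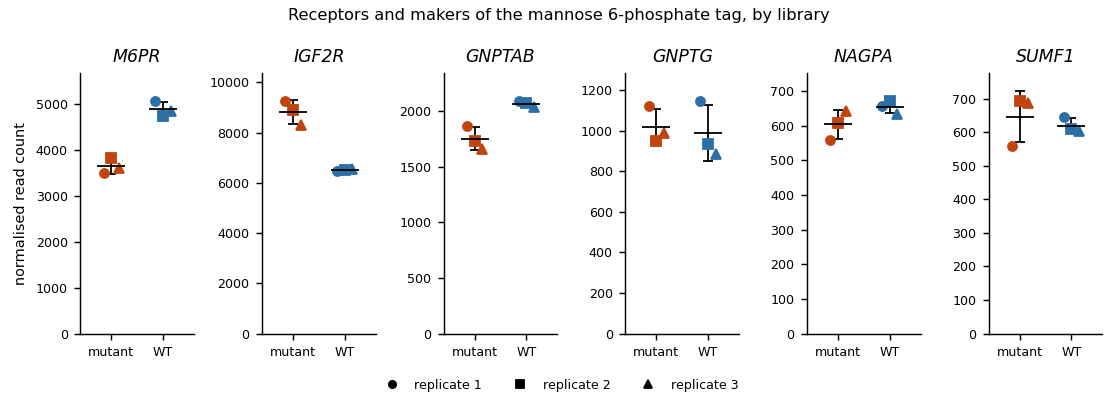
Normalised read count (y axis, from 0) of the 2 receptors, the 3 tag makers and SUMF1 in each library, mutant left and WT right in each panel; symbols are replicate numbers, the long line is the mean and the bar is 1 SD (n = 3). M6PR and GNPTAB lie lower and IGF2R higher in every mutant library, while GNPTG, NAGPA and SUMF1 overlap.

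Proteases held the largest rise of the 43 genes and a fall as large as any among them. Of 10, 3 were higher and 1 was lower, against 16% and 16.6% of all tested genes. With the block, 5 were higher and 3 lower, against 25.1% and 24.6%. CTSL (ENSG00000135047, chromosome 9, 87725519 to 87731393, plus strand), the endopeptidase cathepsin L, was at 12450.1, 13293 and 13575 in the mutant libraries and 6843, 8023 and 7729 in the WT libraries, with all mutant libraries far above all WT libraries. Its log2 change of 0.80 ± 0.08 (limma adjusted p = 1.82e-04) was the largest rise of the 43. CTSL has 6 annotated pseudogenes, none of them listed in the table, and the handling of reads with several matches is also not known here.

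CTSC (ENSG00000109861, chromosome 11, 88293592 to 88337787, minus strand), the dipeptidyl peptidase cathepsin C, which activates serine proteases of immune cells, was at 2165, 2406 and 2411 in the mutant and 4063, 3326 and 3859 in WT. The genotypes were well apart, with a log2 change of -0.68 ± 0.09 (limma adjusted p = 7.09e-04). CTSZ, the carboxypeptidase cathepsin Z, was at 6811, 7592 and 7044 in the mutant and 5436, 5663 and 5486 in WT, a log2 change of 0.37 ± 0.07 (limma adjusted p = 0.00348). CTSB, the abundant cathepsin B, was at 6146, 5825 and 5708 in the mutant and 4892, 4736 and 4690.3 in WT, a log2 change of 0.30 ± 0.06 (limma adjusted p = 0.00631). For both, each mutant library exceeded each WT library, and the calls of all 4 proteases were kept under all 19 alternatives.

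The most abundant protease per length that did not pass was CTSA, the protective protein that stabilises the glycosidases NEU1 and GLB1. It was at 8042, 7753 and 7945 in the mutant and 7054, 7107 and 7067 in WT, without overlap. Its log2 fold change was 0.16 with an interval from 0.03 to 0.29 (limma adjusted p = 0.0660), and it passed with the replicate block (limma adjusted p = 0.0165). It also passed with DESeq2 without the block (adjusted p = 0.0308). Of its exon length 17.7% overlaps the low-count gene NEURL2. CTSF, CTSH and TPP1 also passed only when the block or another alternative was used. TPP1, the tripeptidyl peptidase, was at 7009.9, 4603 and 4653 in the mutant and 5596, 4133 and 3607 in WT, the library numbered 1 being the highest of both genotypes (adjusted p = 0.307 by limma, and 6.37e-04 with the block). CTSF was at 829 ± 97.3 in the mutant and 1078 ± 205 in WT (limma adjusted p = 0.0850, and 9.65e-04 with the block), and CTSH at 629 ± 43.2 in the mutant and 720.2 ± 41.9 in WT (0.117, and 0.0295 with the block by limma). CTSD, cathepsin D, averaged 2410.1 ± 153 in the mutant and 2578 ± 83.6 in WT. CTSK, the collagen-degrading cathepsin K, was the lowest of the 43 at 150.4, 71.3 and 88.0 in the mutant and 117, 93.1 and 93.5 in WT, and its interval from -0.64 to 0.57 on the log2 scale leaves its direction undetermined.

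Of 13 glycosidases, which remove sugars from glycoproteins, glycolipids and glycosaminoglycans, 3 were higher and 2 were lower, and 4 and 3 with the block, against the same shares of all tested genes as for the proteases. NEU1 (ENSG00000204386, chromosome 6, 31857659 to 31862906, minus strand), the lysosomal sialidase, was at 1188, 1702 and 1641 in the mutant and 1015, 1128 and 1088 in WT. All mutant libraries were above all WT libraries, but mutant replicate 1 lay nearer to WT than to the other 2. The log2 fold change was 0.47 ± 0.13 (limma adjusted p = 0.0258), and the adjusted p rose to between 0.0630 and 0.0964 by limma when any 1 library other than mutant replicate 1 was left out.

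Enzymes that cut mannose moved both ways. MAN2B1, the lysosomal alpha-mannosidase that is lost in alpha-mannosidosis, was at 2359.5, 2087 and 1958 in the mutant and 1652, 1639 and 1574 in WT, a log2 change of 0.39 ± 0.08 (limma adjusted p = 0.00669). Of the MAN2B1 exon length, 13.1% overlaps AC010422.3 on the same strand, whose mean over all libraries was 14.5. MAN2B2, a second alpha-mannosidase that acts on the core of the glycan, was at 2181, 2106 and 2013 in the mutant and 2962, 2623 and 2764 in WT, a log2 change of -0.40 ± 0.07 (limma adjusted p = 0.00299). The 2 alpha-mannosidases thus changed by similar amounts in opposite directions, and both calls were kept under all 19 alternatives. MANBA, the beta-mannosidase, averaged 739 ± 51.2 in the mutant and 649 ± 57.5 in WT and passed with the block only by a narrow margin (limma adjusted p = 0.163, and 0.0487 with the block).

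The 2 alpha-fucosidases also differed. FUCA2, the secreted one, was at 6129, 6783 and 7081 in the mutant and 4831, 5133 and 5268 in WT, a log2 change of 0.39 ± 0.08 (limma adjusted p = 0.00487). Of the FUCA2 exon length, 10.8% overlaps AL031320.2 and 13.6% overlaps VDAC1P8, both on the opposite strand. Their means over all libraries were 36.2 and 219. FUCA1, the lysosomal one, was at 922, 949.9 and 986 in the mutant and 1035, 1052 and 1075 in WT, without overlap, but its log2 fold change of -0.15 did not pass (limma adjusted p = 0.129). GLB1, the beta-galactosidase, was at 1300.4, 1422 and 1424 in the mutant and 1699, 1581 and 1643 in WT, a log2 change of -0.25 ± 0.07 (limma adjusted p = 0.0252). The GLB1 call was lost when any 1 library other than mutant replicate 1 was left out, with adjusted p from 0.0550 to 0.0808 by limma.

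GUSB, the beta-glucuronidase, was the most abundant glycosidase per length in WT that did not pass, at 2397, 1688 and 1763 normalised reads in the mutant and 2701, 2070.0 and 2084 in WT. Per kilobase it had 488 ± 97.6 in the mutant and 572 ± 90.3 in WT, and GLA had 498 ± 27.0 in the mutant and 464 ± 17.3 in WT. Without division by length, HEXA had more normalised reads (2781 in the mutant and 2553 in WT) than GUSB (1949 and 2285). The exon length was 12611 bases for HEXA and 3992 for GUSB. In both genotypes the library numbered 1 was the highest for GUSB, and within each number the mutant library was the lower one (limma adjusted p = 0.267, and 0.00222 with the block). GUSB has 11 annotated pseudogenes, 5 of them listed with their own reads, so its count is uncertain. The remaining glycosidases had log2 fold changes from -0.15 (GAA, the enzyme of lysosomal glycogen breakdown) to 0.16 (IDUA, the iduronidase), with HEXA at 0.12, GLA at 0.10 and NAGLU at 0.04. None of these 5 passed the limma test with or without the block, and in each of them mutant and WT libraries overlapped. With both libraries numbered 1 left out, HEXA was higher (limma adjusted p = 0.0122) and GAA lower (limma adjusted p = 0.0482). Of the IDUA exon length, 13.35% overlaps SLC26A1 on the opposite strand. SLC26A1 averaged 392 in the mutant and 272.5 in WT, with a log2 change of 0.51 ± 0.13 (limma adjusted p = 0.0160).

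Sulfatases remove sulfate from glycosaminoglycans and sulfatide. Of 5, 2 were lower and 0 were higher by limma, against 16.6% and 16% of all tested genes. At an unadjusted p under 0.05, 3 were lower and 1 (IDS) was higher. With the block 4 were lower and IDS was higher, against 24.6% and 25.1% of all tested genes. DESeq2 and edgeR each called 2 lower and 0 higher. ARSB (ENSG00000113273, chromosome 5, 78777209 to 78986087, minus strand), which acts on dermatan and chondroitin sulfate, was at 398, 454 and 443 in the mutant and 673, 679 and 726 in WT. The genotypes were far apart, with a log2 change of -0.68 ± 0.09 (limma adjusted p = 6.16e-04). SGSH, which acts on heparan sulfate, was at 1131, 1046 and 1045 in the mutant and 1426, 1381 and 1401 in WT, a log2 change of -0.39 ± 0.07 (limma adjusted p = 0.00299). Both calls were kept under all 19 alternatives.

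The other 3 sulfatases passed with the block. ARSA, arylsulfatase A, was at 558, 370.4 and 356 in the mutant and 645, 512 and 503 in WT, with the library numbered 1 high in both genotypes (limma adjusted p = 0.130, and 0.00125 with the block). GALNS averaged 559 ± 44.7 in the mutant and 666 ± 29.7 in WT, without overlap (limma adjusted p = 0.0564, and 0.00945 with the block). IDS, the iduronate sulfatase, was the most abundant of the class per length, at 2555, 2340.5 and 2384 in the mutant and 1956, 2313 and 2044 in WT. It was the 1 sulfatase with every mutant library above every WT library, and its log2 fold change was 0.21 with an interval from 0.03 to 0.39 (limma adjusted p = 0.0794, and 0.0174 with the block). IDS shares 16.5% of its exon length with a same-strand gene model and has 1 annotated pseudogene.

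Among 6 lipid enzymes and lipid-binding proteins, 1 was higher and 1 was lower (16.7% each), close to the 16% and 16.6% of all tested genes. ASAH1, the acid ceramidase, was at 1878, 2287 and 2224 in the mutant and 1666, 1746 and 1669.7 in WT, a log2 change of 0.32 ± 0.09 (limma adjusted p = 0.0197). No libraries overlapped, but the call was lost with single libraries left out, with a highest limma adjusted p of 0.0860. PPT1, the palmitoyl-protein thioesterase, was at 2838, 3071 and 3033 in the mutant and 3777, 3568 and 3654 in WT, a log2 change of -0.30 ± 0.06 (limma adjusted p = 0.00746), and its call was kept under all 19 alternatives. Of the PPT1 exon length, 23.4% overlaps CAP1 on the opposite strand, whose mean was 14300.4 in the mutant and 13512 in WT.

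PSAP, the precursor of the saposins that present lipids to lysosomal enzymes, was the most abundant of the 43 and did not pass. It was at 32538, 25649.8 and 25571 in the mutant and 28861, 26051 and 23999 in WT, with a log2 fold change of 0.08 and an interval from -0.18 to 0.34 (limma adjusted p = 0.628). The library numbered 1 was the highest in both genotypes, and the genotypes overlapped. The cholesterol ester lipase LIPA, the cholesterol carrier NPC2 and the acid sphingomyelinase SMPD1 had log2 fold changes of -0.06, -0.05 and 0.11, and all overlapped. SMPD1 was higher with both libraries numbered 1 left out (limma adjusted p = 0.0256).

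Of the 3 membrane proteins 0 passed limma's test in either direction, against 32.6% of all tested genes. The count was also 0 at an unadjusted p under 0.05 and with DESeq2 or edgeR. LAMP1, the most abundant of them per length, was at 7687, 7987 and 7864 in the mutant and 9172, 8210.3 and 8450.2 in WT, each mutant library being lower than each WT library. Its log2 fold change was -0.13 with an interval from -0.29 to 0.02 (limma adjusted p = 0.167). The log2 fold change of LAMP2 was 0.13 (limma adjusted p = 0.239, and 0.0472 with the block), and SCARB2, the receptor that carries beta-glucocerebrosidase, had -0.06 (limma adjusted p = 0.540).

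**Figure D3:**
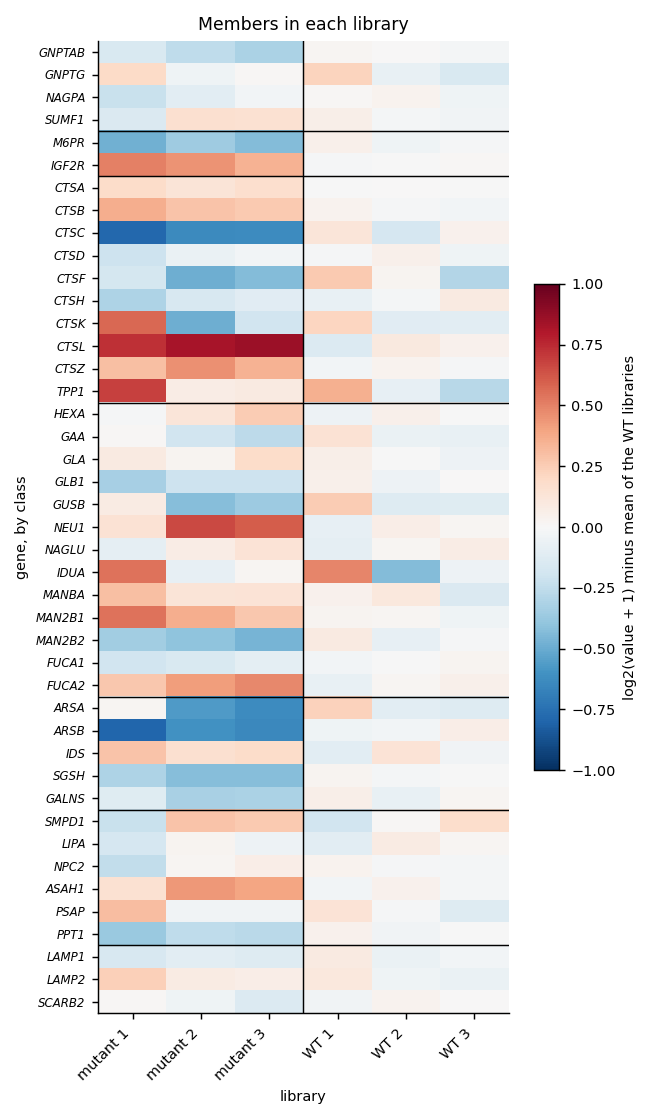
Each of the 43 genes (rows, by class, lines between classes) in each library (columns, mutant left, WT right), coloured by log2(value + 1) minus the mean of the WT libraries. CTSL and IGF2R are red and CTSC, ARSB and M6PR are blue in all 3 mutant libraries, and in TPP1, GUSB and ARSA the columns numbered 1 differ from the others of their genotype.

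The libraries numbered 1 shared a direction in many of the 43 genes. The library numbered 1 was the highest of its genotype in both genotypes for 16 of the 43 (37.2%), against 25.9% of all tested genes, and the lowest in both for 12 (27.9%), against 29.1%. The genes with the library numbered 1 highest included TPP1, GUSB, ARSA, CTSF, IDUA and PSAP, and those with it lowest included SMPD1, HEXA, NEU1 and ASAH1. With both libraries numbered 1 left out, 14 of the 43 were higher and 14 lower, against 28.3% and 27.1% of the 17589 genes tested without them. Of the 16 that passed in the comparison of all 6 libraries, 12 kept their call under all 19 alternatives, the exceptions being GNPTAB, GLB1, NEU1 and ASAH1.

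Per kilobase of exon, mean levels in the mutant ranged from 47.7 (ARSB) to 8620 (PSAP) normalised reads. Exon length is the union of all annotated exons of a gene, so ranks per length depend on the annotation. PSAP (8620 ± 1235 in the mutant and 8121 ± 754 in WT), CTSL (5539 ± 247 in the mutant and 3183 ± 260 in WT), CTSZ (3508 ± 197 in the mutant and 2713 ± 58.6 in WT), FUCA2 (2386 ± 174 in the mutant and 1818 ± 80.1 in WT) and LAMP1 (1367 ± 26.3 in the mutant and 1500.4 ± 87.2 in WT) held the first 5 ranks in both genotypes. CTSA and LAMP2 had means near that of LAMP1. In the mutant, CTSA (1351 ± 25.1) and LAMP1 did not differ beyond their spread. CTSC held rank 30 in the mutant and rank 22 in WT, MAN2B1 rank 19 in the mutant and rank 24 in WT, and ARSB rank 43, the last, in the mutant and rank 40 in WT. At the low end in WT, CTSK (53.6 ± 7.27), MANBA (55.3 ± 4.90) and IDUA (62.1 ± 20.3) did not differ beyond their spread.

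Together the 43 genes took 0.471 ± 0.0280% of the listed reads in the mutant libraries and 0.448 ± 0.0233% in the WT libraries, a difference smaller than the sum of the spreads. Proteases took 0.142 ± 0.00605% in the mutant and 0.119 ± 0.00532% in WT, with no library overlapping, and CTSL made the largest single contribution to that difference.

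**Figure D4:**
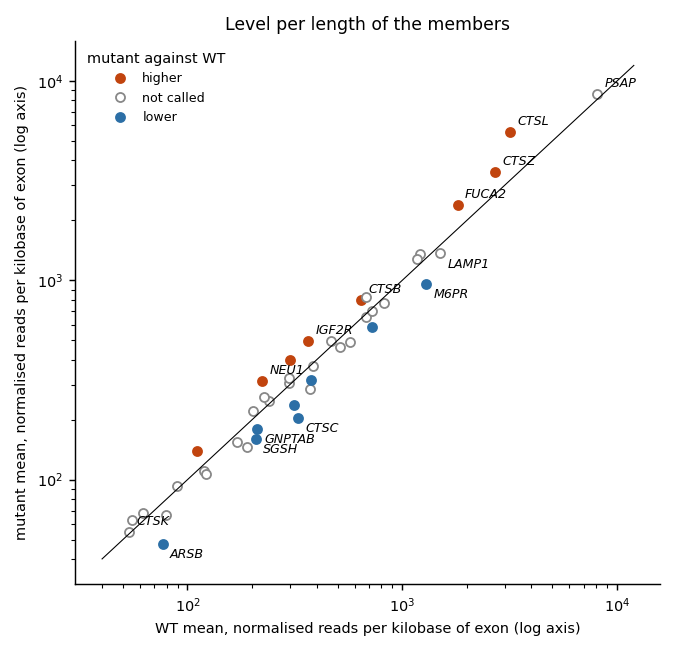
Mean normalised reads per kilobase of exon in the mutant (y axis, log) against WT (x axis, log), 1 point for each of the 43 genes; the line marks equal levels and colours mark the limma call. Most points lie near the line, with CTSL, IGF2R and NEU1 above it and CTSC, ARSB and M6PR below it.

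Other genes of the lysosome were counted from lists of its further parts. Each count below is to be set against all tested genes, of which 16% were higher and 16.6% lower, and 25.1% and 24.6% with the block. Of 27 other soluble lysosomal proteins, 4 were higher (14.8%) and 8 lower (29.6%), with a median log2 fold change of 0.04, and 7 and 10 passed with the block. EPDR1, a lipid-binding glycoprotein of the lysosome, was at 16.7, 10.3 and 9.21 in the mutant and 163, 173 and 199.7 in WT, a log2 change of -3.82 ± 0.24 (limma adjusted p = 1.97e-05). The asparaginyl endopeptidase LGMN, which processes cathepsins, was at 554, 461 and 518 in the mutant and 1004, 882 and 895 in WT, a log2 change of -0.86 ± 0.10 (limma adjusted p = 3.22e-04), and CTSO, cathepsin O, had -0.61 ± 0.13. All 3 were lower in every mutant library.

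Of 22 other lysosomal membrane proteins, 5 were higher (22.7%) and 3 lower (13.6%), with a median of 0.04, and 9 and 5 passed with the block. MCOLN1, the lysosomal calcium channel, was at 973, 1029 and 1138 in the mutant and 628, 570.5 and 587 in WT, a log2 change of 0.81 ± 0.09 (limma adjusted p = 2.42e-04). GLMP and OSTM1, partners of a lysosomal transporter and of the lysosomal chloride exchanger, were higher by 0.80 ± 0.10 and 0.66 ± 0.08 on the log2 scale. Each mutant library exceeded each WT library for these 3.

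Of 21 subunits of the V-ATPase, the proton pump that acidifies lysosomes, 6 were higher (28.6%, against 16% of all tested genes) and 1 was lower (4.76%, against 16.6%), with a median of 0.19, against -0.0031 over all tested genes. With the block, 12 were higher and 2 lower, against 25.1% and 24.6% of all tested genes. The library numbered 1 was the lowest in both genotypes for 10 of the 21 (47.6%), against 29.1% of all tested genes. ATP6V1F was at 2329.8, 3587 and 3609 in the mutant and 1766, 1996 and 1977 in WT, a log2 change of 0.70 ± 0.16 (limma adjusted p = 0.0104), and ATP6V0B had 0.51 ± 0.09 (limma adjusted p = 0.00398). The subunit that was lower was TCIRG1, at 1762, 845 and 890.5 in the mutant and 2659, 1803 and 1692 in WT. Its libraries overlapped, and its log2 change of -0.87 ± 0.28 (limma adjusted p = 0.0434) did not pass in 9 of the alternatives, among them DESeq2 and edgeR on the recovered reads.

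Of 27 coats and carriers that move the receptors between Golgi and endosomes, 5 were higher (18.5%) and 6 lower (22.2%), with a median of 0.07, and 8 and 7 passed with the block. These shares stand against 16% and 16.6% of all tested genes, and 25.1% and 24.6% with the block. The AP-1 subunit genes AP1S1 and AP1M1, which act in clathrin coats at the Golgi, were higher by 0.49 ± 0.11 and 0.46 ± 0.09 on the log2 scale (limma adjusted p = 0.0106 and 0.00434), and SNX2, a retromer-associated sorting nexin, had -0.43 ± 0.07 (limma adjusted p = 0.00237). SORL1, an alternative sorting receptor that fell outside the naming rule for its low level and was chosen after its values were seen, was at 1.86, 9.38 and 4.09 in the mutant and 66.2, 107 and 77.5 in WT (log2 fold change -3.96 ± 0.46, limma adjusted p = 3.76e-04). In 20 of these 27 genes (74.1%) the library numbered 1 was the lowest in both genotypes, against 29.1% of all tested genes. Of 3 helpers of the mark and of sulfatases, 1 was lower: MBTPS1, the site-1 protease that cleaves the GNPTAB precursor, was at 1527, 1483 and 1439 in the mutant and 2177, 2085 and 2186 in WT (log2 fold change -0.54 ± 0.06, limma adjusted p = 3.89e-04).

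Among 18 genes of the TFEB family of lysosomal transcription factors and its regulators, 7 were higher (38.9%, against 16% of all tested genes) and 4 lower (22.2%, against 16.6%), with a median of 0.13. With the block 8 were higher and 5 lower, against 25.1% and 24.6% of all tested genes. MITF, a family member, was at 568, 548 and 559.9 in the mutant and 937, 894 and 928 in WT, a log2 change of -0.72 ± 0.07 (limma adjusted p = 1.69e-04). LAMTOR1, an anchor of the mTORC1 platform on lysosomes, had -0.67 ± 0.16 (limma adjusted p = 0.0140) and lost its call without WT replicate 2 (0.0567) or WT replicate 3 (0.0594) by limma. RRAGB, a Rag GTPase of the same platform, had 0.61 ± 0.09 (limma adjusted p = 9.86e-04).

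**Figure D5:**
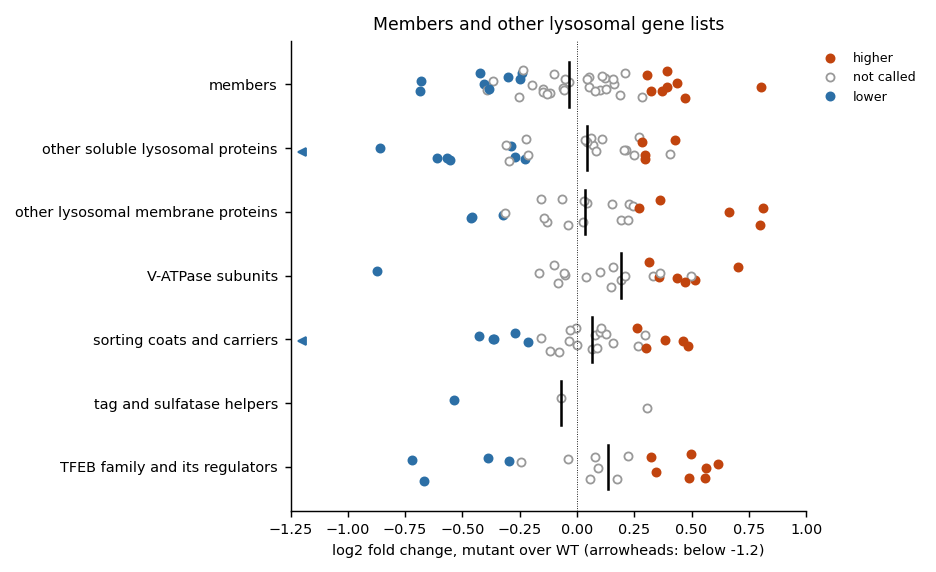
Log2 fold change, mutant over WT (x axis), of the 43 genes and of 6 lists of other lysosomal genes (rows), 1 point per gene with the limma call by colour; the black bar is the list's median and arrowheads mark genes below the axis. Every list with more than 3 genes has points that passed on both sides of 0, and the V-ATPase median lies at 0.19.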

How the data were processed

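The 6 libraries, from total RNA, enriched by poly(A) selection and sequenced in pairs on an Illumina HiSeq, were 3 mutant and 3 WT. GRCh38, Subread 1.5.2, featureCounts, STAR 2.5.2b, Trimmomatic 0.36 and DESeq2 stand in the submitters' processing notes, without roles. The authors deposited 1 table whose per-library values, a signal with no stated unit, were in 100% of cases whole reads, within 0.01 of a read, divided by 1 size factor per library. Further columns are the authors' deposited p-value, adjusted p-value and log2 fold change, which served as an alternative. It lists 17911 genes with a lowest mean of 9.83, and genes below that are not analysed here. Symbols stored as dates (22) were restored by ID through GENCODE 29, which also gave coordinates and exon lengths.

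The 17893 genes whose mean reached 10 were tested with limma-trend (R 4.3.3, limma 3.58.1, trend and robust) after taking log2(value + 1). Genotype was the sole covariate, and p-values were adjusted by Benjamini-Hochberg over all tested genes. For low genes this scale makes changes look smaller. edgeR 4.0.16 and DESeq2 1.42.0 were run on the recovered reads as alternatives. edgeR's quasi-likelihood test called 3007 genes higher and 2873 lower. Other alternatives were a replicate block, each library left out, both libraries numbered 1 left out, TMM or upper-quartile factors, another filter (none, or a mean of 50 or more), pseudocounts of 0.5 and 5, the authors' columns and an adjusted p under 0.01.

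Same-numbered libraries deviated together from their genotype means (correlation across genes 0.545, 0.189 and 0.276, each above 0.1). No label names a batch, so the block was kept as an alternative, and its values stand beside the calls it changed. Unlike numbers did so too (mutant 2 with WT 3, 0.299), and a likeness of the libraries numbered 1 alone would give such values. The 43 genes and the other lists were chosen with earlier results of these data known. Values were given per library for the receptors, makers and SUMF1, in other classes for up to 5 genes with the largest change past the test and the most abundant one that did not pass, and in other lists for up to 3, where the higher genotype averaged 100 or more. Those of TPP1, CTSK, FUCA1 and ARSA were added after their values were seen. RefSeq promoter sequences are of GRCh38.p14.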

Additional observations from a re-analysis of the deposited data

How the results depend on the processing

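Of the 16 genes among the 43 that passed, 12 kept their direction and call under all 19 alternatives, and no gene that passed changed direction under any of them. Of the 43, 13 were higher and 13 lower with the replicate block, 14 and 14 with both libraries numbered 1 left out, and 13 were lower with edgeR and the block. With 1 library left out, 6 to 11 were higher and 6 to 13 lower, the 13 coming without mutant replicate 1. TMM and upper-quartile factors, no filter and both pseudocounts each left 8 higher and 8 lower. Calls gained with the block are those named beside their genes above, and the block ended no call among the 43. Over all tested genes, 4494 were higher and 4410 lower with the block, 4984 and 4758 with both libraries numbered 1 left out, 4647 higher with edgeR and the block, and 1513 and 1799 at an adjusted p under 0.01. With 1 library left out, 1738 to 4389 were higher and 2020.0 to 4284 lower, the lowest higher counts coming without mutant replicate 2 (1738), mutant replicate 3 (1817) or WT replicate 2 (1865), and the highest without mutant replicate 1 (4389). Why these counts moved was not tested.

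Some genes that did not pass changed direction. CTSK was at -0.036 with all libraries and at 0.0272 with DESeq2, 0.0341 with edgeR, 0.0167 with edgeR and the block and 0.0270 in the authors' deposited table. NPC2 was at 0.0626 with both libraries numbered 1 left out. With 1 library left out, GNPTG ranged from -0.0220 to 0.16, CTSK from -0.34 to 0.19, NAGLU from -0.0062 to 0.11, IDUA from -0.0618 to 0.40, NPC2 from -0.11 to 0.0450 and PSAP from -0.0344 to 0.15 (log2 fold change). With 3 libraries per genotype, the 95% intervals given above set the precision of each log2 fold change, and CTSA and IDS had intervals above 0 but an adjusted p above 0.05 without the block.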
